A study of Sus scrofa with 12 samples.

Results

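The sarcomere genes of slow and fast fibres are the genes for the proteins of the contractile unit of striated muscle. They were taken as the probe sets whose single symbol in the platform annotation belongs to the families MYH, MYL, TNNC, TNNI, TNNT, TPM, MYBPC, MYOM, MYOZ, TMOD or LMOD, or is 1 of a short list of actin, actinin and scaffold genes. The non-muscle and smooth muscle genes MYH9, MYH10, MYH11, MYL6 and MYL9 were left out, while TPM4 and TMOD3, found in many cells, were kept. Each gene was read from its brightest probe set. This gave 33 genes, with 45 probe sets in all, of 6765 genes with a symbol on the array. By role they were 8 slow fibre genes, 8 fast fibre genes, 11 genes of the filament frame and scaffold, and 6 isoforms known best from heart, developing muscle or other cells. The genes were chosen by name, with earlier results of these data known, and the probe set of each gene by its mean over the 12 arrays. Several well-known members, among them MYH1, MYH4, MYOZ2, MYBPC2, ACTN3 and ACTA1, were not analysed here.

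As background, force in a sarcomere comes from myosin heads that pull on actin filaments, and calcium starts the pull by binding troponin C, which lets troponin I and T shift tropomyosin off the actin sites. Slow fibres, which are oxidative and hard to fatigue, and fast fibres, which are quicker and more glycolytic, build this machine from different genes for myosin heavy chain, myosin light chains, all 3 troponin subunits and tropomyosin. The share of these fibre types is much studied in pork, because it goes along with the speed of energy use after death and with meat quality. No gene here is a measure of 1 fibre, since each array held RNA of a whole piece of muscle.

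The pieces came from the semimembranosus, a large muscle at the back of the thigh, of 3 female commercial hybrid pigs of about 160 kg from 1 farm, stunned with 87% CO2 and slaughtered within a minute of each other. The sources used here give neither age nor genotype, and no group was treated. From the left leg of each pig a piece of 3 to 5 g was cut at 20 min, 2 h, 6 h and 24 h after death, with the carcass in the cold chain of the abattoir down to 4 °C. Each piece went to its own Affymetrix porcine array, which makes 12 arrays, 3 pigs at each of 4 times, and the 20 min arrays serve all comparisons with 20 min. Values are log2 intensities of probe sets, on which 1 unit is a doubling, and levels of different probe sets are not set against each other because probes differ in brightness.

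The measured markers of skeletal muscle fibre were bright, with means over the 12 arrays of 14.48 for the muscle creatine kinase gene CKM, 14.12 for TTN and 13.37 for DES. Array medians lay between 5.89 and 5.93, and the correlation of a pair of arrays over the probe sets was 0.986 at the lowest. In bulk RNA, fewer cells of a type and less RNA per cell cannot be told apart. The 20 min array of pig 3 stood apart for other cell types, as list means against each gene's mean of 12 arrays. The 3 measured macrophage markers (CD163, C1QA, C1QC) were 1.01 higher there, the 3 adipocyte markers 0.77, the 4 fibroblast markers 0.50 and the 3 smooth muscle markers 0.34. The adipocyte markers were not of 1 direction. ADIPOQ read 6.52 against its mean of 4.65 and FABP4 11.33 against 10.54, while LEP was lower, at 6.14 against 6.48. The 3 muscle fibre markers were 0.09 lower there, but TTN and DES are themselves among the sarcomere genes studied. CKM, the marker outside them, read 14.476 there against a mean of 14.485. CKM lay between 14.46 and 14.51 on all 12 arrays, close to the brightest value on any array (14.71 to 14.89). What this does to its differences was not tested. For the slow genes, class means and counts below, values without the 20 min array of pig 3 are given where they differ by more than 1.5 times.

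The sarcomere genes were among the brightest probe sets of these arrays. Of the 33, 25 had a mean of 12 or more and 9 a mean of 14 or more, while 1.66% of the 23999 probe sets tested reached 12. These shares are not of probe sets chosen alike. Each member was read from its brightest probe set, which was a choice in the 8 members with more than 1, and the background holds every probe set. The 9 brightest were MYH7, MYL2, MYH2, MYL1, TNNC2, TNNI2, TNNT3, TPM1 and TTN. They varied over all 12 arrays by 0.09 to 0.31, with a median range of 0.15, which equals the median of all 41 probe sets at that level. The brightest value on any array was between 14.71 and 14.89, so these genes sit close to the top of the scale, and what this does to their differences was not tested. Between 13 and 14 the 12 members ranged more widely, by 0.09 to 1.35 with a median of 0.45, against 0.26 for all 136 probe sets of that level. The 7 dimmest, with means under 10, were TPM3 and the 6 isoforms of other muscle or cells.

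Time after death moved 0 of the 33 genes past the test at 24 h against 20 min (limma, Benjamini-Hochberg adjusted p under 0.05), where 0.00417% of all probe sets passed, which is 1 probe set of another gene. At an unadjusted p under 0.05 there were 8 members against 13.1% of all probe sets, with 7 members higher (background 6.41%) and 1 lower (background 6.67%). At 6 h against 20 min 0 members passed, as did 0% of all probe sets, and 8 members were under an unadjusted 0.05 against 8.83% of all. All 8 were higher, against 4.29% of all probe sets. At 2 h 0 passed against 0% of all, with 6 members under an unadjusted 0.05 against 7.95% of all, 5 of them higher (background 4.01%) and 1 lower (background 3.94%). The F test for any time difference gave 0 members against 0.00417% of all, with 5 under an unadjusted 0.05 against 8.22% of all. These comparisons share the 20 min arrays.

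The 95% intervals bound the change in intensity, and for the 9 members at 14 or more the part of the top of the scale in their width was not tested. At 24 h the 95% intervals of all 33 members lay within a 2-fold change from 20 min, and those of 28 lay within 1.5-fold. At 6 h the counts were 32 and 29, with TNNT2, whose upper bound was 1.13 on the log2 scale, as the member outside 2-fold. At 2 h they were 33 and 29.

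**Figure D1:**
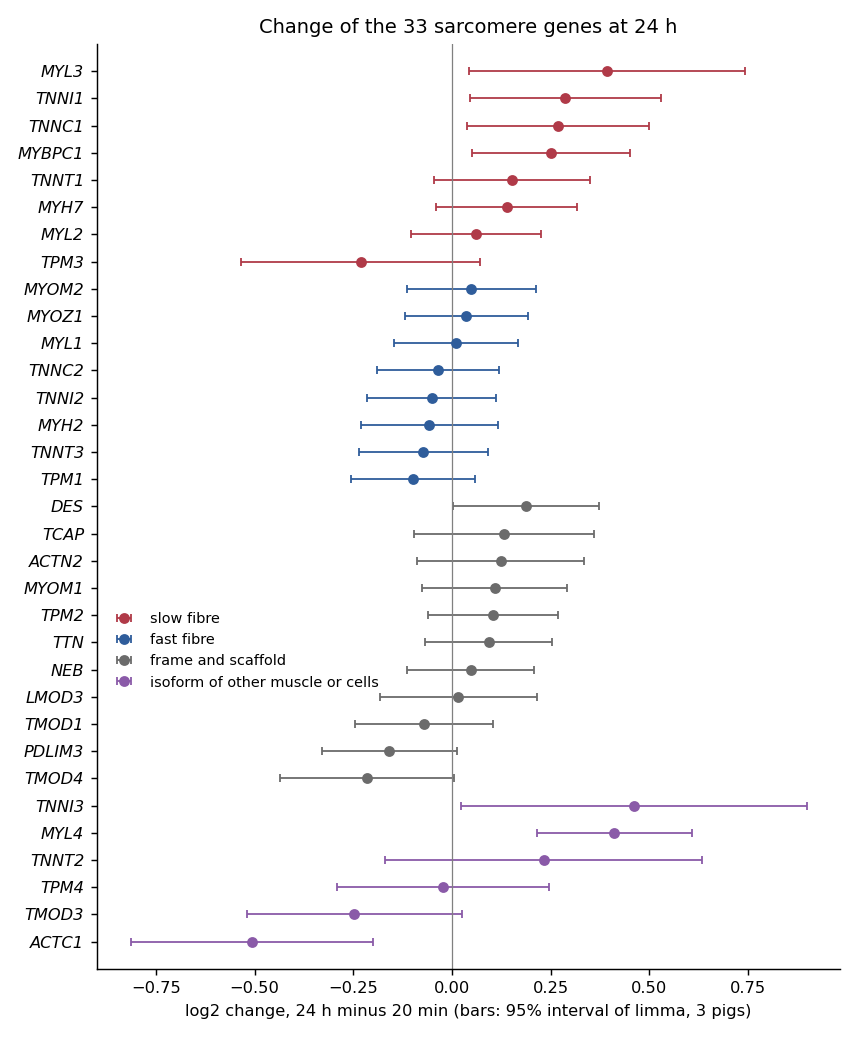
Log2 change of each of the 33 sarcomere genes from 20 min to 24 h after death (horizontal axis), grouped by class and sorted by size; points are means of 3 pigs and bars the 95% intervals of the limma model. The 8 fast fibre genes sit between -0.10 and 0.05, 7 of the 8 slow fibre genes lie above 0, and the widest bars belong to isoforms of other muscle or cells.

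At 20 min 7 of the 8 slow fibre genes read lower in pigs 2 and 3 than in pig 1, and from 2 h on both pigs were closer to pig 1 or above it. TPM3 was the exception. MYH7, the slow myosin heavy chain, read 14.39, 14.26 and 14.15 at 20 min in pigs 1, 2 and 3. Its later values were 14.37, 14.40 and 14.38 at 2 h, 14.36, 14.43 and 14.38 at 6 h, and 14.38, 14.41 and 14.44 at 24 h. Pigs 2 and 3 were low at 20 min and level with pig 1 from 2 h on. The change at 24 h was 0.14 (SE 0.082), which did not pass (limma adjusted p = 0.480), and it was 0.08 without the 20 min array of pig 3.

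The slow troponin genes had the same layout of values. TNNI1, the slow inhibitory subunit that holds back contraction, read 13.94, 13.51 and 13.33 at 20 min, 13.97, 13.86 and 13.92 at 2 h, 13.98, 13.99 and 13.86 at 6 h, and 13.90, 13.88 and 13.87 at 24 h. TNNC1, the calcium sensor shared by slow and heart muscle, read 13.83, 13.41 and 13.38 at 20 min and stayed between 13.77 and 13.85 on all 9 later arrays. TNNT1, the slow subunit that ties troponin to tropomyosin, read 14.03, 13.84 and 13.69 at 20 min and between 13.97 and 14.05 later. In all 3 genes the 20 min values of pigs 2 and 3 lay below every later array, and pig 1 showed no such gap. The 24 h changes were 0.29 (SE 0.11) for TNNI1, 0.27 (SE 0.11) for TNNC1 and 0.15 (SE 0.09) for TNNT1, and none of the 3 passed (limma adjusted p 0.322, 0.327 and 0.484). Without the 20 min array of pig 3 they were 0.17, 0.18 and 0.07, and without pig 3 as a whole 0.16, 0.17 and 0.05. At 2 h and 6 h TNNI1 was 0.32 and 0.35 higher than at 20 min (limma adjusted p = 0.592 and 0.498), against 0.20 and 0.23 without that array.

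MYL3, the essential light chain of slow and ventricular muscle, varied more than any other slow gene. It read 13.14, 13.00 and 12.25 at 20 min, 13.30, 13.52 and 13.18 at 2 h, 13.00, 13.61 and 13.13 at 6 h, and 13.01, 13.56 and 13.01 at 24 h. The 20 min piece of pig 3 was the lowest of the 12, and pig 2 was highest at each later time. The changes of 0.53 at 2 h and 0.39 at 24 h, the last with an SE of 0.16 and a fold of 1.31, did not pass (limma adjusted p = 0.579 and 0.341). Without the 20 min array of pig 3 they were 0.33 and 0.19. MYL2, the regulatory light chain of the same fibres, read 14.54, 14.41 and 14.39 at 20 min and between 14.48 and 14.53 later. Its 24 h change was 0.06 (SE 0.075, limma adjusted p = 0.747), and 0.03 without the 20 min array of pig 3.

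MYBPC1, the slow form of the myosin binding protein that stiffens the thick filament, read 13.82, 13.63 and 13.54 at 20 min, 13.87, 13.88 and 13.85 at 2 h, 13.95, 13.98 and 13.74 at 6 h, and 13.85, 13.95 and 13.95 at 24 h. It was the 1 slow gene whose 3 later values were above the 20 min value in every pig. Its 24 h change was 0.25 (SE 0.092) and did not pass (limma adjusted p = 0.305). TPM3, the slow tropomyosin, was the exception of the class. It read 8.40, 8.47 and 8.89 at 20 min and 8.44, 8.53 and 8.08 at 24 h, with all 2 h and 6 h values between 8.44 and 8.55. Pig 3 was highest of all at 20 min and lowest of all at 24 h, and pigs 1 and 2 varied by little. The mean change of -0.23 (limma adjusted p = 0.485) was 0.05 without pig 3, and -0.04 without either its 20 min or its 24 h array. Its other probe sets did not all go the same way, with changes of -0.24 and 0.26.

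**Figure D2:**
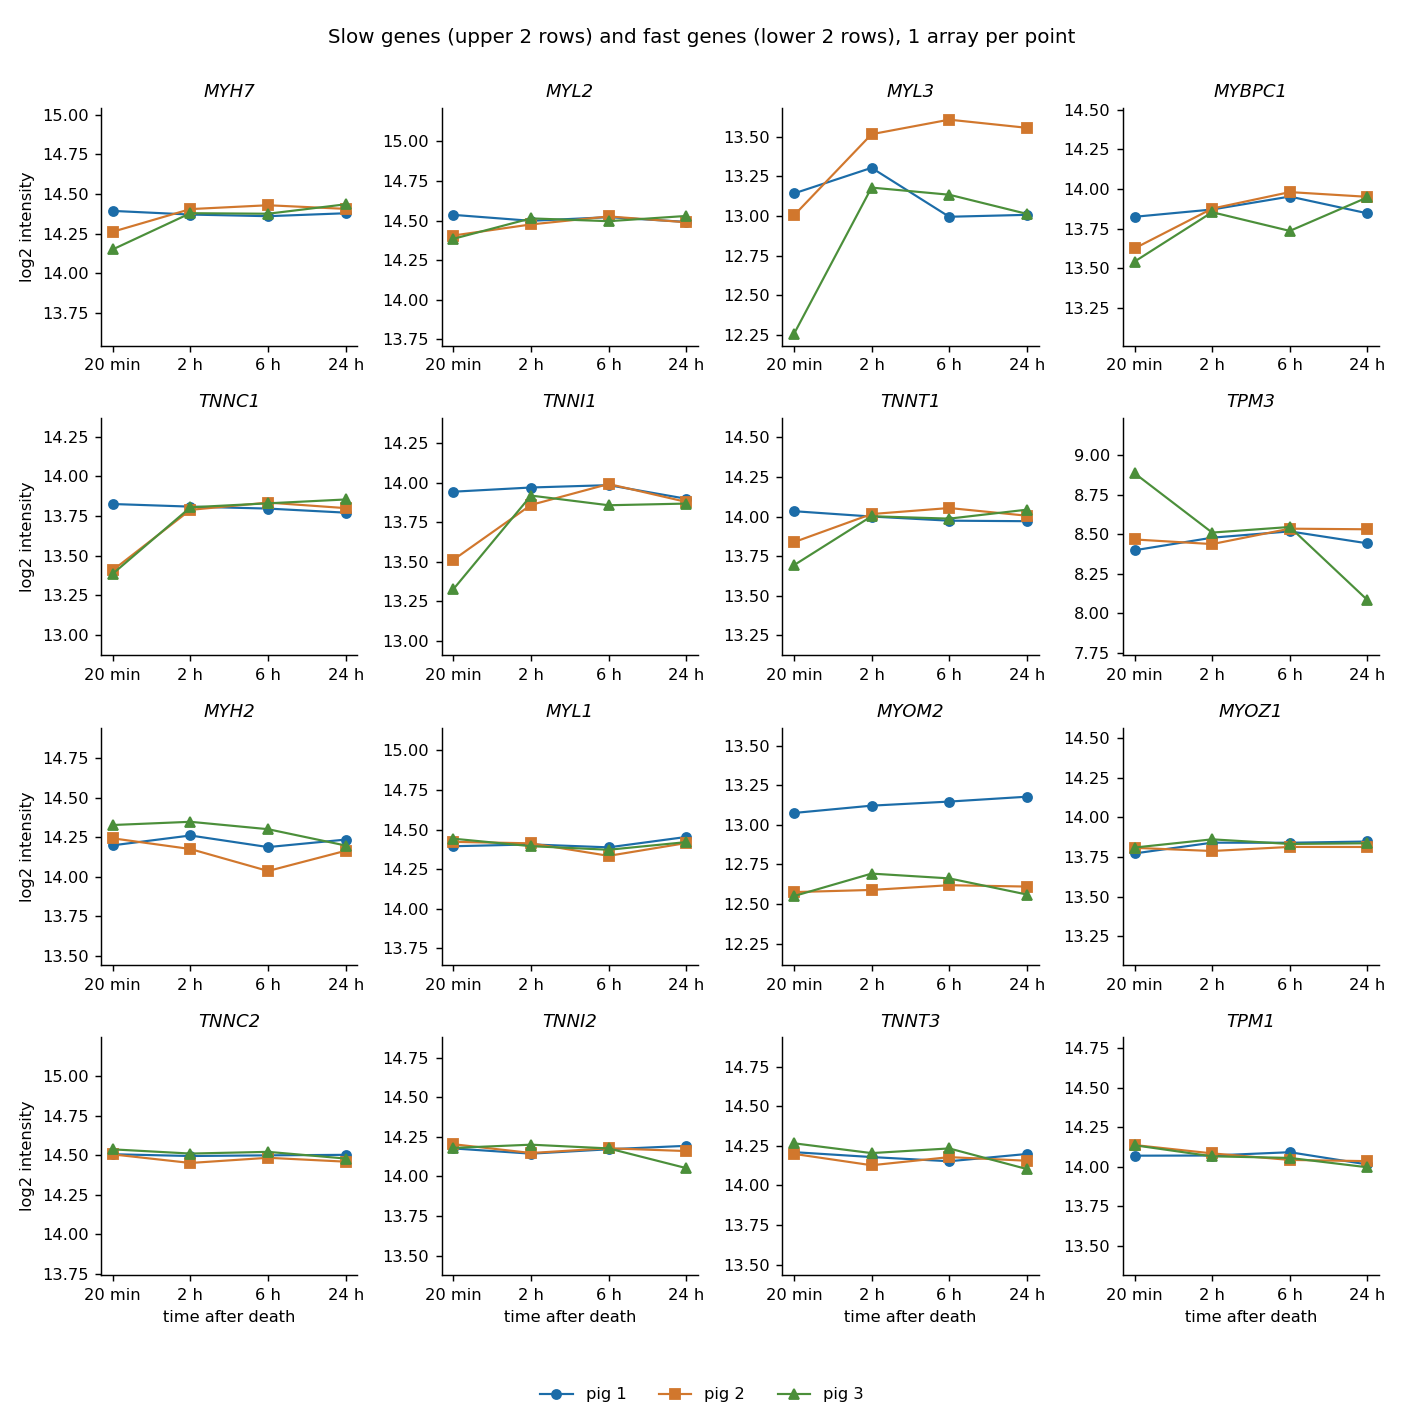
Log2 intensity (vertical axes, all spanning the same number of log2 units) of 8 slow fibre genes and 8 fast fibre genes at 20 min, 2 h, 6 h and 24 h after death; each point is 1 array and lines join the arrays of a pig. In 7 slow genes pigs 2 and 3 are low at 20 min and closer to pig 1 or above it from 2 h on, while MYOM2 is apart in pig 1 and 6 of the fast genes lie at 14 or more.

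None of the 8 fast fibre genes passed in any time comparison. Of these, 6 had a mean of 14 or more, near the top of the scale, and the part of this in their ranges was not tested. MYOM2 and MYH2 had the widest ranges of the class over the 12 arrays, 0.63 and 0.31. The other fast genes ranged by 0.09 (TNNC2) to 0.16 (TNNT3). The slow genes ranged by 0.15 (MYL2) to 1.35 (MYL3), and only MYL2 and MYH7 (0.28) of them by less than MYH2. MYH2, a fast oxidative heavy chain, read 14.20, 14.24 and 14.33 at 20 min, 14.26, 14.18 and 14.35 at 2 h, 14.19, 14.04 and 14.30 at 6 h, and 14.23, 14.16 and 14.20 at 24 h. The times overlapped, and the 24 h change was -0.06 (limma adjusted p = 0.780) and -0.02 without pig 3. TNNC2, TNNI2 and TNNT3, the fast troponin subunits, had 24 h changes of -0.04, -0.05 and -0.07 (limma adjusted p = 0.850, 0.791 and 0.695), of which TNNI2 and TNNT3 were -0.01 and -0.03 without pig 3. TNNC2 stayed between 14.45 and 14.54 on all 12 arrays, TNNT3 between 14.10 and 14.27, and TNNI2 between 14.14 and 14.20 on all but the 24 h array of pig 3, at 14.05. MYL1, the fast essential light chain, stayed between 14.33 and 14.45. Its change of 0.01 turned to -0.0024 with cyclic loess scaling and so has no settled sign. MYOZ1, a Z-disc protein of fast fibres that binds calcineurin, stayed between 13.77 and 13.86, with a change of 0.04.

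TPM1, the fast tropomyosin, was the fast gene with the lowest change. It read 14.07, 14.14 and 14.14 at 20 min and 14.01, 14.04 and 14.00 at 24 h, so that the 3 pigs were lower and the groups did not overlap. The change of -0.10 (limma adjusted p = 0.573) did not pass, and it was 0.02 when all probe sets of the gene were averaged, since a dim set read 0.28 higher. MYOM2, an M-band protein that links thick filaments, had a change of 0.05 (limma adjusted p = 0.801).

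As a class summary, the mean of the 8 slow genes at 20 min, as a deviation from each gene's mean of 12 arrays, was 0.03, -0.17 and -0.28 in pigs 1, 2 and 3. On the 9 later arrays it lay between -0.01 and 0.14. The mean of the 8 fast genes lay between -0.06 and 0.06 on all 12 arrays. From 20 min to 24 h the slow mean differed by -0.04, 0.26 and 0.27 in pigs 1, 2 and 3 (0.165 ± 0.174, SD, n = 3), and the fast mean by 0.03, -0.04 and -0.08 (-0.0276 ± 0.0517, SD, n = 3). The difference of slow minus fast was positive in pigs 2 and 3 and not in pig 1. Across the single genes, the median 24 h change was 0.20 for the slow class, -0.04 for the fast class and 0.01 for all probe sets tested. These medians were not worked out without the 20 min array of pig 3. Without it the slow gene changes ran from -0.04 (TPM3) to 0.21 (MYBPC1), against -0.23 (TPM3) to 0.39 (MYL3) with it.

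The slow mean stayed positive under all alternatives tried, from 0.111 to 0.266 at 24 h, and it was lowest without the 20 min array of pig 3. Without that array, slow minus fast was 0.134 at 24 h, 0.158 at 6 h and 0.140 at 2 h, against 0.193, 0.217 and 0.199 with it. Without that array the members under an unadjusted 0.05 came to 2 at each of 2 h, 6 h and 24 h. For the F test over time they came to 3 without it, against 5 with it. Without pig 3 as a whole they came to 1, 2 and 2 at 2 h, 6 h and 24 h. Without pig 2 they came to 3, 2 and 4. The share of all probe sets under an unadjusted 0.05 was not counted in these settings, so whether the members moved with all probe sets was not tested. Pig 1 alone gave slow minus fast differences of 0.01, -0.01 and -0.06 at 2 h, 6 h and 24 h.

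**Figure D3:**
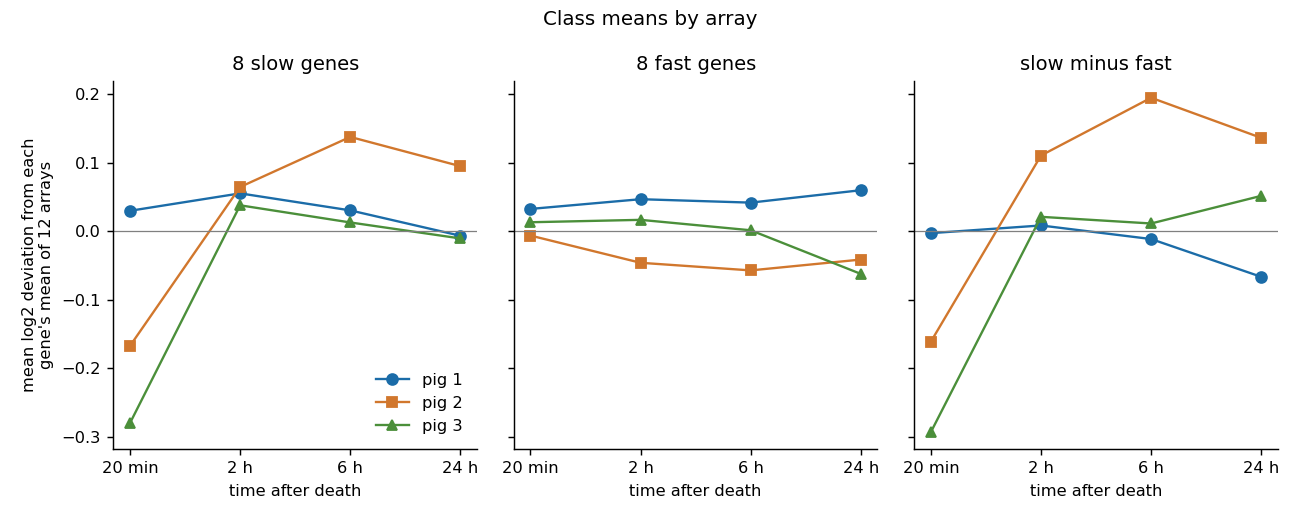
Mean log2 deviation of the 8 slow genes, the 8 fast genes and slow minus fast (vertical axis, from each gene's mean of 12 arrays) by time after death; each point is 1 array and each line 1 pig. At 20 min the slow mean is 0.03, -0.17 and -0.28 in pigs 1, 2 and 3, and the fast mean stays between -0.06 and 0.06.

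Reading the arrays within a pig gives the same layout as a count. In both pig 2 and pig 3, all 3 later arrays were above the 20 min array for 17 of the 33 genes (51.5%), against 13.3% of all probe sets. They were 7 of 8 slow genes, 1 of 8 fast genes (MYOM2), 6 of 11 frame genes and 3 of 6 other isoforms. This count was set up after the values had been seen and no test was made of it. In every pig it held for 4 members, MYBPC1, MYOM2, MYOM1 and MYL4, which is 12.1% against 3.42% of all probe sets. The 20 min array of pig 3 was the lowest of the 12 for 7 of the 8 slow genes. It was also the lowest for 4 of 11 frame genes, 1 of 8 fast genes and 1 of 6 other isoforms. The share of all probe sets lowest on that array was not counted.

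Other measures moved on the same arrays. In pig 3 the macrophage marker mean went from 1.01 at 20 min to -0.14, -0.01 and -1.43 at 2 h, 6 h and 24 h, the adipocyte mean from 0.77 to 0.33, 0.09 and -0.08, and the fibroblast mean from 0.50 to 0.08, 0.09 and 0.14. In pig 2 the 20 min values of these 3 lists were -0.02, 0.16 and -0.16, and the smooth muscle mean was 0.18. The adipocyte mean of pig 2 was highest at 20 min through ADIPOQ alone, which read 5.57 against 4.17 to 4.37 later. The other adipocyte markers were lowest there, FABP4 at 10.22 against 10.39 to 10.75 later and LEP at 6.36 against 6.61 to 6.67. In pig 3 LEP was likewise lowest at 20 min, at 6.14, against the direction of its list mean. Over all 12 arrays the macrophage mean ran from -0.83 to 1.01 outside the last array of pig 3. The dimmest marker of these cell types was ADIPOQ of adipocytes, between 4.01 and 6.52 and highest on the 20 min array of pig 3. The difference between the 3′ and 5′ control probe sets of EF1A, a sign of RNA length, was 0.48, 0.63 and 0.23 at 20 min and between 0.44 and 1.11 later. That of GAPDH was -0.23, -0.22 and -0.20 at 20 min and between -0.30 and -0.16 later, and that of actin 2.37, 2.23 and 2.33 and between 2.00 and 2.54 later. The part of these measures in the slow gene values was not tested.

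None of the 11 frame and scaffold genes passed for time either, and their values were laid out in several ways. TTN, the giant spring that spans the sarcomere, read 14.12, 14.09 and 14.05 at 20 min and 14.19, 14.19 and 14.16 at 24 h. In each pig the 24 h piece was the highest of the 4, yet the change of 0.09 (SE 0.074) did not pass (limma adjusted p = 0.602). A second TTN probe set read 0.37 higher, also without passing (limma adjusted p = 0.316). NEB, the ruler of the thin filament, stayed between 13.85 and 13.97. DES, the intermediate filament that ties neighbouring Z-discs, read 13.34, 13.19 and 13.17 at 20 min and between 13.33 and 13.52 on later arrays, with a 24 h change of 0.19 (limma adjusted p = 0.376). A second, very dim DES set, with a mean of 3.41, differed by -0.03, and the mean of both sets by 0.08. TCAP, the cap that anchors titin in the Z-disc, read 13.41, 13.05 and 12.91 at 20 min and 13.42, 13.55 and 13.19 at 6 h. Its change was 0.27 at 6 h (limma adjusted p = 0.530) and 0.13 at 24 h, and without pig 2 0.15 and 0.03. The bright DES set and TCAP were lower at 20 min in pigs 2 and 3 than in pig 1.

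ACTN2, the main crosslinker of the Z-disc, read 13.33, 13.36 and 12.84 at 20 min and between 13.18 and 13.60 later, and its 24 h change was 0.12 (limma adjusted p = 0.601), against 0.02 without the 20 min array of pig 3. TMOD4, which caps the slow-growing end of the thin filament, was between 12.79 and 13.00 on all arrays but the 24 h array of pig 3, at 12.51. Its 24 h change of -0.22 did not pass (limma adjusted p = 0.388), and it was -0.08 without that array. PDLIM3, a Z-disc adaptor, was lower at 24 h in all 3 pigs, by -0.16 (limma adjusted p = 0.406). The other frame genes, TPM2, MYOM1, LMOD3 and TMOD1, had 24 h changes between -0.07 and 0.11.

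The 6 isoforms of other muscle or cells were dim, and they held the largest 24 h changes of the members in either direction. MYL4, the light chain of atrium and developing muscle, read 6.93, 6.62 and 6.66 at 20 min, 7.18, 6.97 and 6.97 at 2 h, 7.08, 7.03 and 6.81 at 6 h, and 7.17, 7.25 and 7.02 at 24 h. In each pig all later pieces were above the first. The 24 h change of 0.41 (SE 0.09), a fold of 1.33, had the smallest p of the members at 24 h (unadjusted p = 6.68e-04, limma adjusted p = 0.193) and did not pass. ACTC1, the cardiac actin that fetal muscle also makes, read 9.10, 8.28 and 8.99 at 20 min, 8.43, 8.41 and 8.30 at 2 h, 9.02, 8.38 and 8.87 at 6 h, and 8.36, 8.06 and 8.41 at 24 h. Pigs 1 and 3 were high at 20 min and 6 h and low at 2 h and 24 h, and pig 2 stayed low throughout. Its changes were -0.40 at 2 h and -0.51 at 24 h (limma adjusted p = 0.592 and 0.223).

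TNNT2, the cardiac troponin T, was the dimmest member, and read 3.79, 3.30 and 3.52 at 20 min and 4.08, 4.68 and 4.06 at 6 h. The 6 h values were above those of 20 min in all 3 pigs, with pig 2 highest. The change of 0.73 (SE 0.18) was the largest of any member and did not pass (limma adjusted p = 0.488). Without pig 2 it was 0.41, and all TNNT2 values lay below the array medians. From 6 h to 24 h it was -0.50, and -0.19 without pig 2. In that comparison 0 members passed against 0% of all probe sets, and 2 members, TNNT2 and ACTC1, were under an unadjusted 0.05 against 8.08% of all (both lower, background 3.8%). From 2 h to 6 h it was 0.53, and 0.30 without pig 2, and again 0 members passed against 0% of all, and the same pair of genes was under an unadjusted 0.05 against 2.26% of all (both higher, background 0.758%). TNNI3, the cardiac troponin I, read 7.69 in pig 3 at 20 min and 8.95 at 24 h. Its other 10 arrays lay between 7.97 and 8.37, so that the mean change of 0.46 rested on pig 3 (limma adjusted p = 0.366). TMOD3 and TPM4, cytoskeletal forms found in many cells, had 24 h changes of -0.25 and -0.02.

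**Figure D4:**
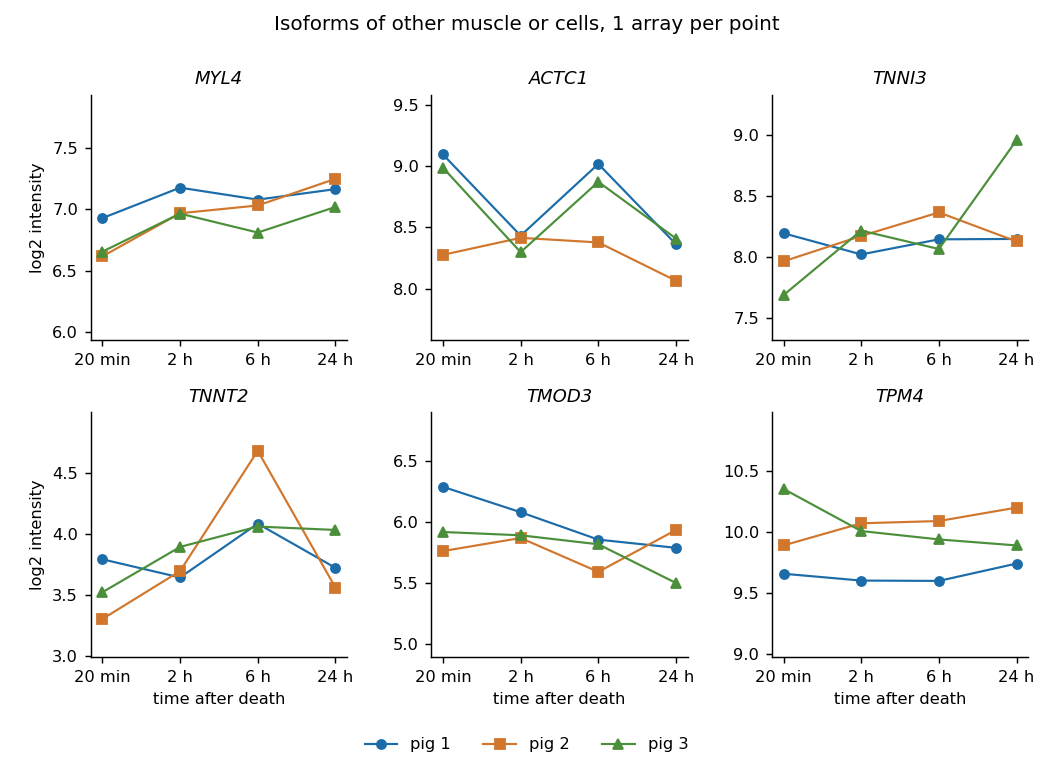
Log2 intensity (vertical axes) of the 6 isoforms of other muscle or cells by time after death; each point is 1 array and each line 1 pig. MYL4 is lowest at 20 min in each pig, ACTC1 alternates in pigs 1 and 3, and TNNI3 spans 7.69 to 8.95 in pig 3.

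Unlike the times, the pigs differed past the test in several members. The F test for pig sets the 3 pigs against the spread between pieces of the same pig, so it describes these 3 animals and says nothing of pigs in general. It passed for 7 of the 33 genes (21.2%), against 19.9% of all probe sets, which is close to the background, and 11 members were under an unadjusted 0.05 against 34% of all. In 5 members (15.2%) the 4 arrays of 1 pig lay wholly above or below the other 8, against 15.5% of all.

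MYOM2 was the clearest case. It read between 13.08 and 13.18 in pig 1, between 12.58 and 12.62 in pig 2 and between 12.55 and 12.69 in pig 3. The 4 arrays of pig 1 lay wholly above the rest, by 1.45-fold between the highest and lowest pig means (limma adjusted p = 2.84e-04). Without pig 1 the other pigs did not differ past the test (limma adjusted p = 0.913). MYOM1, the other M-band gene, ordered the pigs otherwise. It was lowest in pig 3, between 11.98 and 12.18, against 12.33 to 12.56 in pig 1 and 12.50 to 12.61 in pig 2 (limma adjusted p = 0.00270, and 0.298 without pig 3).

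In the Z-disc, PDLIM3 was low in pig 1, between 13.35 and 13.56, against 13.61 to 13.90 in the other pigs (limma adjusted p = 0.00372, and 0.543 without pig 1). ACTN2 was high in pig 2, between 13.36 and 13.60, against 13.18 to 13.33 in pig 1 and 12.84 to 13.22 in pig 3 (limma adjusted p = 0.0140). That call was lost without pig 2 (0.352) or pig 3 (0.0822), and a second ACTN2 probe set did not pass (limma adjusted p = 0.321). TPM4 was low in pig 1, between 9.60 and 9.74, against 9.89 to 10.35 in the others (limma adjusted p = 0.0239, and 0.957 without pig 1). Its second probe set did not pass (limma adjusted p = 0.188). ACTC1 and MYL3 passed close to the threshold (limma adjusted p = 0.0431 and 0.0460), with pig means that spanned 0.44 and 0.53. In these last 2 genes the arrays of the pigs overlapped.

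**Figure D5:**
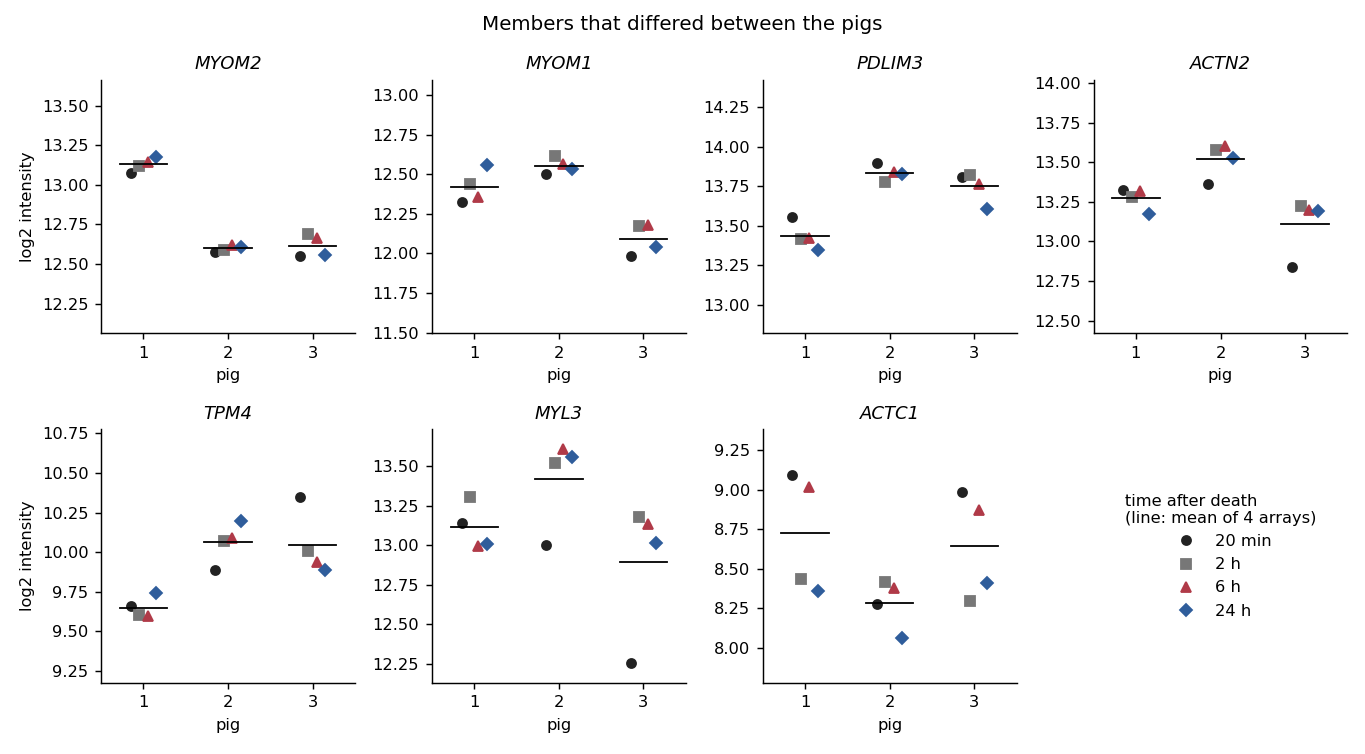
Log2 intensity (vertical axes) of the 7 sarcomere genes that passed the F test for pig, with pigs 1 to 3 on the horizontal axis; each point is 1 array, its shape and colour give the time, and the line is the mean of the 4 arrays of a pig. MYOM2 in pig 1 lies at 13.08 to 13.18 with all other arrays at 12.69 or lower, while ACTC1 and MYL3 overlap between pigs.

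The remaining members did not pass for pig, and their pig means differed by 0.01 to 0.25. The fibre-type genes were among them, with 1 slow gene (MYL3) and 1 fast gene (MYOM2) of 8 each past the test. MYH7, for instance, had pig means of 14.38, 14.38 and 14.34, and MYH2 of 14.22, 14.15 and 14.29.

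Probe sets of a gene did not always agree. Of the 8 members with more than 1 probe set, TMOD3 differed most: its dimmer set read between 5.81 and 6.54 in pig 2 and between 3.49 and 4.04 in pigs 1 and 3 (limma adjusted p for pig = 2.53e-06), while its brightest set showed no such step. A dim TPM2 set likewise read 8.69 to 9.56 in pig 2 and 7.66 to 8.73 in the others (limma adjusted p for pig = 0.00118), and the brightest TPM2 set, between 13.85 and 14.04, did not pass. What separates the sets of a gene was not tested. Genes of these families are alike in sequence, and whether a probe set also reads a close relative, such as MYH1 or MYH4 for MYH2, was not tested either.

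Genes that work beside the sarcomere were read from lists of partners and regulators. Of 4 measured slow fibre partners 0 passed in any time comparison: ATP2A2, the slow calcium pump, read 13.53, 13.32 and 13.15 at 20 min and 13.56, 13.53 and 13.58 at 24 h, which is low in pigs 2 and 3 at 20 min as in the slow genes. Its change was 0.22 (limma adjusted p = 0.331), and that of PLN, its inhibitor phospholamban, was 0.30 (limma adjusted p = 0.414). CA3 and CASQ2 had changes of 0.09 and -0.14. The 2 measured fast partners, MYLPF, the fast regulatory light chain, and ATP2A1, the fast calcium pump, had changes of -0.04 and 0.01. Of 11 Z-disc, M-band and turnover genes and 11 fibre-type regulators 0 passed for time. Over all 28 partner and regulator genes at 24 h, 1 was higher at an unadjusted p under 0.05, ATP2A2, against 6.41% of all probe sets, and 4 were lower, against 6.67% of all: XIRP1 (-0.50), TRIM55 (-0.27), the calcineurin subunit gene PPP3CA (-0.41) and MEF2A (-0.31), with limma adjusted p between 0.193 and 0.358.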

How the data were processed

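Biotin-labelled cRNA from each piece was read on a porcine Affymetrix array, per the labels. The authors deposited log2 intensities, 1 for each probe set and array, and the submitters' processing notes name RMA and affy, without versions. RMA quantile-normalises the arrays, so a shift shared by all transcripts would not show.

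The pigs and the codes of the times came from the sample titles, which do not themselves give minutes or hours. The table holds 24123 probe sets, of which 124 are controls and were not tested; 10069 of the rest had 1 symbol, 198 several and 13732 none in the platform annotation, which can be old. All 33 members matched the Sscrofa11.1 RefSeq gene table by gene ID. The array's build is not named, so no coordinates are given, and no sequence of these genes was used here.

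A linear model in limma 3.58.1 (R 4.3.3, statmod 1.5.0) over all 12 arrays and 23999 probe sets held the 4 times and pig as a replicate block (6 residual and 5.67 prior degrees of freedom). It was also run on simulated data, and how often it found changes as small as those seen here is not reported here. P-values are two-sided, with Benjamini-Hochberg adjustment over all probe sets of a comparison and 0.05 as the threshold; SE is the model's standard error. The series' design text says the same muscle of each pig was sampled each time. Arrays of the same pig deviated together from the time means, with r of at least 0.409 in each of 18 pairs. Pieces of 1 pig are repeats of 1 animal, so 3 pigs limit the precision.

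The members, classes and lists were chosen with earlier results of these data known. Named genes were the fibre-type pairs, 5 main frame genes, the 3 highest and 3 lowest changes of 1 sign in all pigs per comparison, and the 5 smallest p for pig; other members named were chosen after their values were seen. Alternatives were the pig block dropped or made random, each pig, the 20 min and the 24 h array of pig 3 left out, the dimmest 40% of probe sets left out, cyclic loess, centring on the brightest 5%, a trended robust prior, the mean of a gene's probe sets, no time terms and class medians; class means without TPM3 were added after seeing the data.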

Additional observations from a re-analysis of the deposited data

Results flagged for a closer look

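Within each pig, 96 groups of 4 arrays (29 of the 33 genes and 3 summaries of the slow and fast classes, with LMOD3, TMOD1, TNNI3 and TPM2 not searched) were searched for an array far from the other 3, by Dixon's 95% criterion for 4 values. Of these 13 met it, against 4.8 at 1 in 20 for independent groups not chosen by their values. These groups were neither, so 4.8 is no expectation for them. The genes share arrays, and some were named for their changes in these data. The summaries average genes already searched, so the slow mean and slow minus fast of pig 3 count flagged slow genes again. The 20 min array was the one apart in 10 of the 13, in pig 3 in 6 of them and in pig 2 in 3.

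In pig 3 at 20 min the slow troponin genes TNNC1 (13.38), TNNI1 (13.33) and TNNT1 (13.69) were below the later arrays of that pig, whose lowest values were 13.80, 13.86 and 13.99. ACTN2 was 12.84 on that array against 13.19 or more later. The mean deviation of the slow genes was -0.28 there, against -0.01 to 0.04 later, and slow minus fast was -0.29, against 0.01 to 0.05.

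In pig 2 at 20 min MYH7 (14.26), MYL3 (13.00) and TNNC1 (13.41) were below the later arrays, whose lowest values were 14.40, 13.52 and 13.79. In pig 1 the array apart at 20 min was that of MYOZ1, at 13.77 against 13.84 to 13.85. The remaining 3 were later arrays: MYL1 in pig 2 at 6 h (14.33), and TMOD4 (12.51) and TNNI2 (14.05) in pig 3 at 24 h. Their distances from the nearest other array were small in MYL1, MYOZ1 and TNNI2, whose values spanned 0.09 to 0.15 over all 12 arrays.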

How the results depend on the processing

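Members past the adjusted threshold for time stayed at 0 in all alternatives and all 5 comparisons. Probe sets called at 24 h against 20 min, 1 in the model used, were 0 without the replicate block and 0 with a random block, and for the F test over time 0 under both, 0 with cyclic loess and 0 without the dimmest 40%. Leaving out a pig or 1 array gave 0 to 2 at 24 h, 0 to 9 at 24 h against 6 h (9 without the 20 min array of pig 3) and 0 to 3 for the F test. Members under an unadjusted 0.05 numbered 13 at 24 h, 12 at 2 h and 9 for the F test with a trended robust prior. Without the replicate block they were 5 at 6 h, 2 for the F test and 1 at 6 h against 2 h; without the dimmest 40% they were 1 at 24 h against 6 h and 1 at 6 h against 2 h. With pigs or arrays left out they ran from 2 to 10 at 24 h, 2 to 10 at 6 h, 1 to 9 at 2 h, 1 to 2 for both later comparisons and 2 to 7 for the F test. For pig, leaving out gave 1872 to 4133 probe sets and 3 to 5 members past the threshold, with 7 to 9 members under an unadjusted 0.05; with the mean of a gene's probe sets 2044 genes and 11 members passed. Fewer pigs and fewer features tested are part of those settings, and the cause of the other shifts was not tested. In no alternative was the share of all probe sets under an unadjusted 0.05 counted, so the member counts at that level stand without a background.

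Of 640 repeats for 54 single values, 628 kept direction and side of the threshold. No time change passed to begin with, so its side of the threshold had little room to change. Some sizes moved without pig 3, as in ACTN2 at 24 h (0.12 to 0.01) and TNNT1 (0.15 to 0.05). Others stayed close, as in TTN (0.09 to 0.08). In 6 repeats, each with 1 pig left out, a call for pig was lost, in MYOM2, MYOM1, PDLIM3, ACTN2 and TPM4. The sign turned for MYL1 at 24 h (-0.0145 without pig 1, -0.0145 to 0.0256 over pigs or arrays left out, -0.0024 with cyclic loess), TPM3 at 24 h (0.054 without pig 3, and -0.3785 to 0.054 over those left out) and at 24 h against 6 h (0.0121 without the 24 h array of pig 3, and -0.2685 to 0.0121 over those left out), and, with the mean of a gene's probe sets, TPM1 at 24 h (0.0194) and TMOD3 at 6 h against 2 h (0.0403). Slow class means kept their sign throughout, and the fast mean at 2 h turned to 0.0089 without pig 2. Other scalings moved the median of all probe sets by 0.0333 at most. Signal over background is not in the values used, and 3 pigs limit every comparison.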

Other observations

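Some of the partner and regulator genes also differed between the pigs. Among the slow fibre partners 1 of 4 passed the F test for pig: CASQ2, the calcium store protein of slow and heart muscle, read between 4.72 and 5.28 in pig 2, against 5.49 to 6.41 in pig 1 and 5.89 to 6.12 in pig 3 (limma adjusted p = 0.00237). The 2 fast partners, MYLPF and ATP2A1, did not pass. In the Z-disc, M-band and turnover list 6 of 11 passed and among the fibre-type regulators 6 of 11, against 19.9% of all probe sets. They included CAPZB, which caps the barbed end of the thin filament (limma adjusted p = 0.00198), XIRP1 (0.00394) and PPARGC1A, a coactivator known from oxidative fibres (9.06e-04). As with the sarcomere genes, these tests describe 3 animals.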
